A study of Mus musculus with 8 samples.

Results

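Basement membrane genes of the glomerulus and tubule were followed in the kidneys of mice with MUC1 kidney disease, as 10 genes of the 21759 in the deposited table. They were taken by symbol: the collagen IV chains Col4a1, Col4a2, Col4a3, Col4a4 and Col4a5, the laminin chains Lama5, Lamb2 and Lamc1, the linker Nid1 (nidogen) and the heparan sulfate proteoglycan Agrn (agrin). MUC1 kidney disease is inherited and affects tubules and interstitium, and the male mice, aged 8 months, carried the knock-in in both groups. A small molecule, BRD4780, was given at 50 mg/kg to 4 mice and vehicle (saline) to the other 4, every day for 7 days. Bulk RNA sequencing was done on a sagittal kidney section from each. The labels do not describe the knock-in allele, and no wild-type group was analysed here. Library totals were 23.2, 28.2, 27.8 and 5.74 M expected counts with BRD4780 and 28.5, 28.1, 16.6 and 23.8 M with vehicle, for replicates 1 to 4. BRD4780 replicate 3 stood apart from the other treated libraries. Between whole libraries, its chi-square per degree of freedom, which also grows with depth, was 64.8, 90.3 and 31.7 to BRD4780 replicates 1, 2 and 4, and 19.1 to 37.7 to the vehicle libraries. Its summed proximal tubule markers were 20000 CPM, against 14300 to 14400 CPM in the other treated libraries and 16900 to 18400 CPM with vehicle. Counts of calls are also given without it.

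A basement membrane is a sheet built from a laminin network and a collagen IV network, joined by nidogen and by heparan sulfate proteoglycans. Most basement membranes use the collagen IV chains of Col4a1 and Col4a2. In the mature glomerulus the network of Col4a3, Col4a4 and Col4a5, made by podocytes, replaces it, and laminin with the Lamb2 chain replaces laminin with the Lamb1 chain. Variants of the human genes COL4A3, COL4A4 and COL4A5 cause Alport syndrome, and loss of human LAMB2 causes Pierson syndrome.

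The collagen IV genes lie in head-to-head pairs on GRCm38 (mm10, GENCODE M21). Col4a4 (chr1:82448423-82586849, minus strand) and Col4a3 (chr1:82586921-82722059, plus strand) start 71 bases apart and are transcribed away from each other. Col4a1 (chr8:11198423-11312826, minus strand) and Col4a2 (chr8:11312805-11449287, plus strand) overlap by 22 bases at their starts. Col4a5 (chrX:141475385-141689234, plus strand) starts 1308 bases from Col4a6. The other members are single genes: Lama5 (chr2:180176373-180225859, minus strand), Lamb2 (chr9:108479736-108490530, plus strand), Lamc1 (chr1:153218922-153332786, minus strand), Nid1 (chr13:13437551-13512269, plus strand) and Agrn (chr4:156165290-156197488, minus strand). Exons of Col4a3 share 563 bases with an annotated transcript on the opposite strand and those of Nid1 share 143, which matters if counting ignored strand.

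Start regions were available for 8 of the 10 genes from RefSeq (GRCm38.p6), Col4a3 and Lamc1 being the others. The sequences below are shown because the first lies between the Col4a4 and Col4a3 starts, and the other ones lead into the laminin genes with the highest fold changes. Capitals mark matches, on either strand, to the GC box (GGGCGG), the CCAAT box (CCAAT), the TATA box (TATAAA), the homeodomain element (TAATTA), the ATF4 element (TGATGNAA) and the cyclic AMP element core (TGACGT), and matches may overlap.
Col4a4 to Col4a3 gap, chr1:82586850-82586920, strand of Col4a4: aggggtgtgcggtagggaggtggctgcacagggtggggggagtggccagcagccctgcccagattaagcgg
Lama5, chr2:180225860-180226109, minus strand: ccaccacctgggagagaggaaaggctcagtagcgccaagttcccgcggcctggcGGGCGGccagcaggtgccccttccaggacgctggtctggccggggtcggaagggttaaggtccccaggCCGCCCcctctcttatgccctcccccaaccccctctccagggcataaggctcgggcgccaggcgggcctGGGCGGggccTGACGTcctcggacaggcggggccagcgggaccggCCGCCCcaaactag
Lamb2, chr9:108479612-108479735, plus strand: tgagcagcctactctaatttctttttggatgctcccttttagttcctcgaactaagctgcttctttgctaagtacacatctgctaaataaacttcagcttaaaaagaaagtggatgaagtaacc

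The gap between Col4a4 and Col4a3 was 69.0% G or C and held none of the 6 motifs. The Lama5 window was 72.4% G or C, with 4 GC boxes and 1 cyclic AMP element core. The Lamb2 stretch, the first 124 bases of its window, cut where the annotated exon begins, was 37.9% G or C and held none of the 6. Bases nearer the RefSeq start, 48 of them exonic, are not shown. This stretch and the 71-base gap are shorter than the windows counted next, so a match was less likely in them. Among 32851 promoter windows of 250 bases, 32.7% held the GC box, 33.8% the CCAAT box, 12.4% the TATA box, 6.47% the cyclic AMP element core, 4.84% the homeodomain element and 3.45% the ATF4 element. These matches describe letters and say nothing of binding.

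The comparison asked how kidney basement membrane transcripts differ between BRD4780 and vehicle. Of the 10 members, 1 rose, Lamb2, and 0 fell by edgeR's quasi-likelihood test at an adjusted p under 0.05. Over all 13474 genes tested, 2.30% were called higher and 0.623% lower, 2.92% in all. At an unadjusted p under 0.05, 5 members were higher and 0 lower, against 13.9% and 10.7% of all genes. DESeq2 called 4 higher (Col4a3, Col4a4, Lama5 and Lamb2) and 0 lower, against 6.41% and 3.69% of all genes. The log2 fold change was positive in 7 members and negative in 3, with a median of 0.28 against 0.01 over all genes. All 10 passed the filter on low counts, and their counts per library ran from 99 to 11636. Without BRD4780 replicate 3, edgeR called 6 members higher and 1 lower. Of all 13558 genes then tested, 12.1% were higher and 1537 genes were lower, so 1 member lower is near the share of all genes. Without any other single library edgeR called 0 members in either direction. In bulk tissue, fewer cells of a type and less RNA per cell cannot be told apart.

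**Figure D1:**
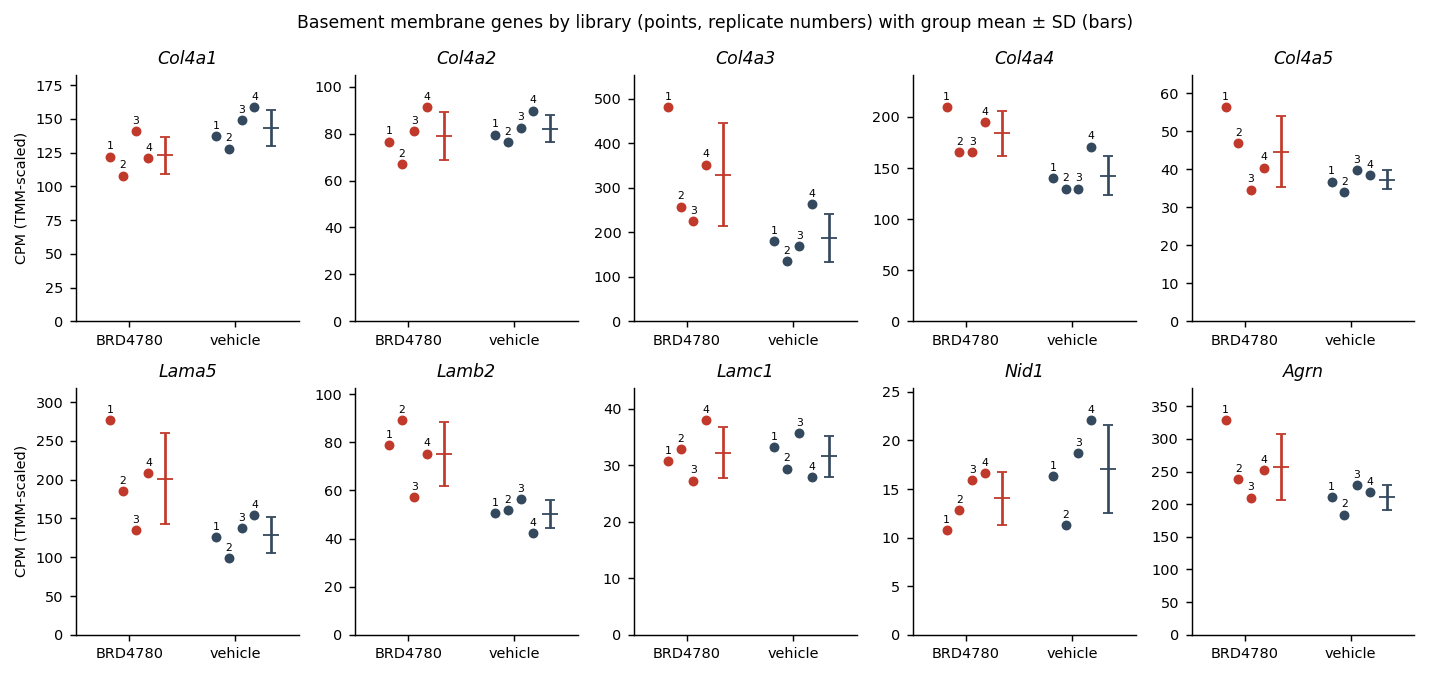
Counts per M (CPM, TMM-scaled) of the 10 basement membrane genes in each library (points, numbered by replicate), with BRD4780 left of vehicle and bars for the group mean ± SD (n = 4 each). Lamb2 is the gene in which the groups do not overlap, and Col4a3 and Lama5 spread most among the treated libraries.

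Among the chains of the glomerular network, Col4a3 had 482, 258, 225 and 352 CPM in BRD4780 replicates 1 to 4, against 181, 135, 169 and 263 CPM in vehicle replicates 1 to 4. Vehicle replicate 4 lay above BRD4780 replicates 2 and 3, so the groups overlapped. The log2 fold change was 0.81 ± 0.25 (SE) with an adjusted p of 0.0952 by edgeR and 0.0187 by DESeq2. Its partner Col4a4 had 210, 166, 166 and 195 CPM with BRD4780, against 140, 130, 130 and 171 CPM with vehicle. Vehicle replicate 4 was again the high vehicle library and lay above BRD4780 replicates 2 and 3. The log2 fold change of Col4a4 was 0.37 ± 0.11 (SE), with an adjusted p of 0.0965 by edgeR and 0.0464 by DESeq2. Col4a5, the chain encoded on the X chromosome, had 56.5, 47, 34.7 and 40.5 CPM with BRD4780, against 36.8, 34.1, 39.8 and 38.6 CPM with vehicle. Its treated libraries reached both above and into the vehicle range (log2 fold change 0.26 ± 0.14 SE, adjusted p = 0.252 by edgeR). BRD4780 replicate 1 was the highest treated library in all 3 of these chains.

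The chains of the widespread network had log2 fold changes below 0, and neither passed the test. Col4a1 had 122, 108, 141 and 121 CPM with BRD4780, against 137, 128, 149 and 159 CPM with vehicle. Only BRD4780 replicate 3 fell inside the vehicle range, and the log2 fold change was -0.22 ± 0.10 (SE), with an adjusted p of 0.205 by edgeR. Col4a2 had 76.6, 67, 81 and 91.4 CPM with BRD4780, against 79.5, 76.5, 82.5 and 89.8 CPM with vehicle. The Col4a2 groups lay almost on top of each other (log2 fold change -0.06 ± 0.10 SE, adjusted p = 0.741 by edgeR).

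The balance of the networks was tested gene by gene as a log2 ratio of CPM within each library, which needs no scaling between libraries. An exact two-sided permutation test was used over 70 arrangements, with a smallest possible p of 0.0286 and adjustment over 6 pairs. Col4a4 over Col4a1 averaged 0.58 ± 0.24 with BRD4780 and -0.01 ± 0.13 with vehicle (SD, n = 4 each), a difference of 0.59 (exact p = 0.0286, adjusted p = 0.0857). Col4a4 over Col4a2 averaged 1.22 ± 0.19 with BRD4780 and 0.79 ± 0.11 with vehicle (SD, n = 4 each), a difference of 0.43 (exact p = 0.0286, adjusted p = 0.0857). In both of these ratios every treated library lay above every vehicle library, and 0 of the 6 pairs passed the adjusted threshold. With a smallest possible p of 0.0286, a fully separated pair could not pass the adjustment by itself, whatever its own values. The adjusted result therefore does not decide the Col4a4 pairs. Col4a3 over Col4a1 differed by 1.01 and Col4a3 over Col4a2 by 0.85 (exact p = 0.0571 and adjusted p = 0.0857 for each), and vehicle replicate 4 lay within the treated range of both. Col4a5 over Col4a1 differed by 0.46 (exact p = 0.114, adjusted p = 0.137) and Col4a5 over Col4a2 by 0.30 (exact p = 0.4, adjusted p = 0.4). Without BRD4780 replicate 3, 5 of the 6 pairs passed, each with an adjusted p of 0.0343 by the exact permutation test, and Col4a5 over Col4a2 did not. That test had 35 arrangements and again a smallest possible p of 0.0286. The omitted library is the treated one that stood apart above, so these 5 results show its weight and are no separate support.

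As a description, the summed level per kb of Col4a3, Col4a4 and Col4a5 was set over that of Col4a1 and Col4a2. This ratio was 2.82, 2.01, 1.42 and 2.05 with BRD4780, against 1.23, 1.09, 1.1 and 1.41 with vehicle. The lowest treated library, replicate 3, and the highest vehicle library, replicate 4, were almost equal. Within the glomerular network the ratio of Col4a3 to Col4a4 was 2.71, 1.84, 1.6 and 2.13 with BRD4780, against 1.53, 1.23, 1.53 and 1.82 with vehicle, and these groups overlapped.

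**Figure D2:**
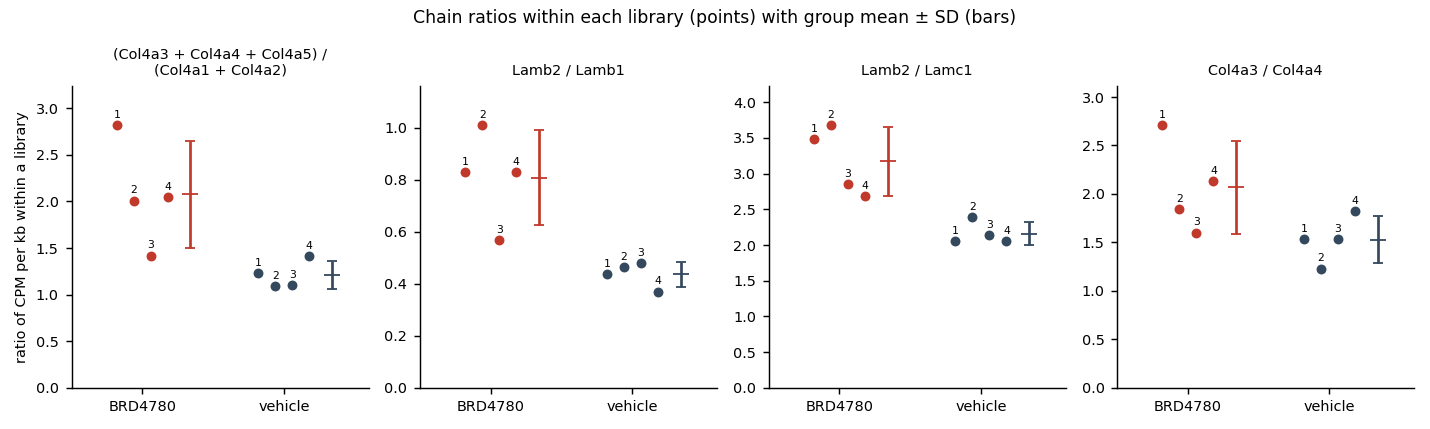
Ratios of CPM per kb of transcript within each library (points, numbered by replicate), BRD4780 left of vehicle, with bars for mean ± SD (n = 4 each). The collagen IV ratio averages 2.07 with BRD4780 and 1.21 with vehicle, and the Lamb2 ratios to Lamb1 and Lamc1 are higher in each treated library than in any vehicle library.

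Among the laminin chains, Lamb2, the beta chain of the mature glomerular basement membrane, had 78.8, 89.3, 57.4 and 75.3 CPM with BRD4780, against 50.6, 51.8, 56.3 and 42.3 CPM with vehicle. Each treated library lay above each vehicle library, narrowly so for BRD4780 replicate 3 beside vehicle replicate 3. Lamb2 rose 1.5-fold, to 75.2 ± 13.3 CPM with BRD4780, against 50.27 ± 5.85 CPM with vehicle (SD, n = 4 each), with a log2 fold change of 0.58 ± 0.13 (SE) and an adjusted p of 0.0491 by edgeR and 0.00341 by DESeq2. It was the 1 member of 10 whose groups did not overlap upward, against 7.44% of all genes, and 0 members did so downward, against 5.16%. The call was close to the threshold: leaving out any library other than BRD4780 replicate 3 gave an adjusted p of 0.0803 to 0.138, with log2 fold changes of 0.48 to 0.70 over all 8 omissions.

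Lama5, the alpha chain that partners Lamb2 in the glomerular basement membrane, had 277, 185, 135 and 209 CPM with BRD4780, against 126, 98.9, 138 and 154 CPM with vehicle. BRD4780 replicate 3 lay inside the vehicle range, and the other treated libraries lay above it. The log2 fold change was 0.64 ± 0.20 (SE), with an adjusted p of 0.0964 by edgeR and 0.0262 by DESeq2. Lamc1, the gamma chain shared by most laminins, had 30.7, 32.8, 27.3 and 38 CPM with BRD4780, against 33.2, 29.4, 35.7 and 27.9 CPM with vehicle. The Lamc1 groups overlapped throughout (log2 fold change 0.02 ± 0.12 SE, adjusted p = 0.939 by edgeR).

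Lamb1, the beta chain of most other laminins and not a member of the set, was compared with Lamb2 as the chain it replaces. It had 97.7, 91, 104 and 93.4 CPM with BRD4780, against 119, 115, 121 and 118 CPM with vehicle. The groups stood apart with Lamb1 lower in each treated library (log2 fold change -0.29 ± 0.07 SE), while the adjusted p was 0.051 by edgeR and 0.00264 by DESeq2. Per kb, the ratio of Lamb2 to Lamb1 was 0.567 to 1.01 with BRD4780 and 0.37 to 0.479 with vehicle. The ratio of Lamb2 to Lamc1 was 3.48, 3.68, 2.85 and 2.68 with BRD4780, against 2.06, 2.39, 2.14 and 2.05 with vehicle. Both ratios were higher in each treated library than in any vehicle library, and neither was tested. The ratio of Lama5 to Lama1 overlapped between the groups, at 4.15 to 8.24 with BRD4780 and 2.96 to 4.59 with vehicle.

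Agrn, whose product carries heparan sulfate in the glomerular basement membrane, had 329, 239, 210 and 252 CPM with BRD4780, against 211, 184, 229 and 218 CPM with vehicle. BRD4780 replicate 1 was again the highest library and replicate 3 lay inside the vehicle range (log2 fold change 0.29 ± 0.13 SE, adjusted p = 0.201 by edgeR). Nid1, which links laminin to collagen IV, had 10.8, 12.8, 15.9 and 16.6 CPM with BRD4780, against 16.3, 11.3, 18.7 and 22.1 CPM with vehicle. It was the member with the lowest level per kb in both groups, and its groups overlapped (log2 fold change -0.30 ± 0.20 SE, adjusted p = 0.386 by edgeR).

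**Figure D3:**
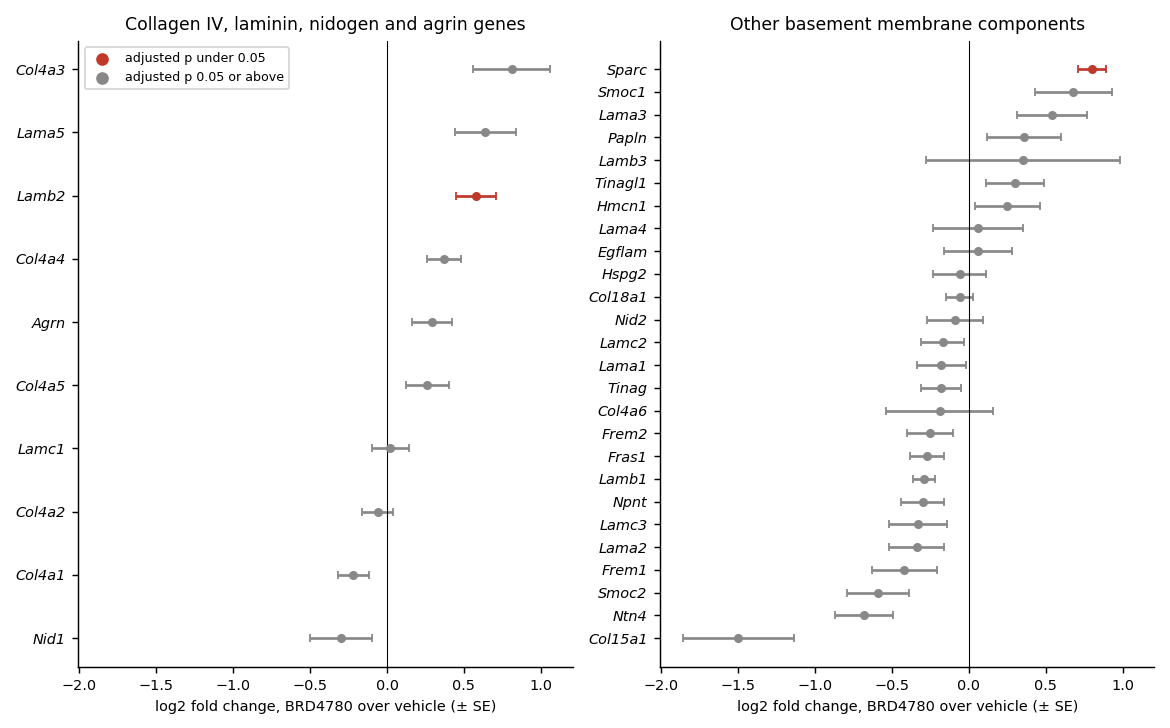
Log2 fold changes, BRD4780 over vehicle, with bars for ± SE from edgeR, for the 10 members (left) and 26 other basement membrane components (right). Filled red points are past an adjusted p of 0.05, Lamb2 at 0.58 on the left and Sparc at 0.80 on the right.

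Levels were compared between genes as CPM per kb of the longest coding transcript. With BRD4780, Col4a3 (38.5 ± 13.5 CPM per kb) and Agrn (37.4 ± 7.34) stood highest, against 21.9 ± 6.35 for Col4a3 and 30.5 ± 2.74 for Agrn with vehicle (SD, n = 4 each). Their ranges overlapped in both groups, so their order is not settled. Next came Col4a1 at 18.6 ± 2.03 CPM per kb with BRD4780 and 21.6 ± 2.03 with vehicle, Col4a4 at 18.2 ± 2.18 and 14.1 ± 1.9, and Lama5 at 17.7 ± 5.17 and 11.3 ± 2.02, in that order of groups. With BRD4780 the ranges of these 3 genes overlapped, while with vehicle that of Col4a1 (19.4 to 24 CPM per kb) lay above that of Col4a4 (12.9 to 16.9). Lamb2 had 13.4 ± 2.36 CPM per kb with BRD4780 and 8.93 ± 1.04 with vehicle, and Col4a2 had 12.2 ± 1.57 with BRD4780 and 12.7 ± 0.88 with vehicle. Col4a5 (6.83 ± 1.43 with BRD4780, 5.71 ± 0.379 with vehicle), Lamc1 (4.22 ± 0.588 and 4.14 ± 0.467) and Nid1 (2.3 ± 0.441 and 2.8 ± 0.744 CPM per kb) came last, in the same order in both groups. With the length of all exons of a gene in place of 1 transcript, Col4a1 and Col4a3 changed places in the vehicle order. With BRD4780 that length put Lama5 (17.7 CPM per kb) before Col4a4 (17.3) and Col4a1 (16.5), the reverse of their order above.

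**Figure D4:**
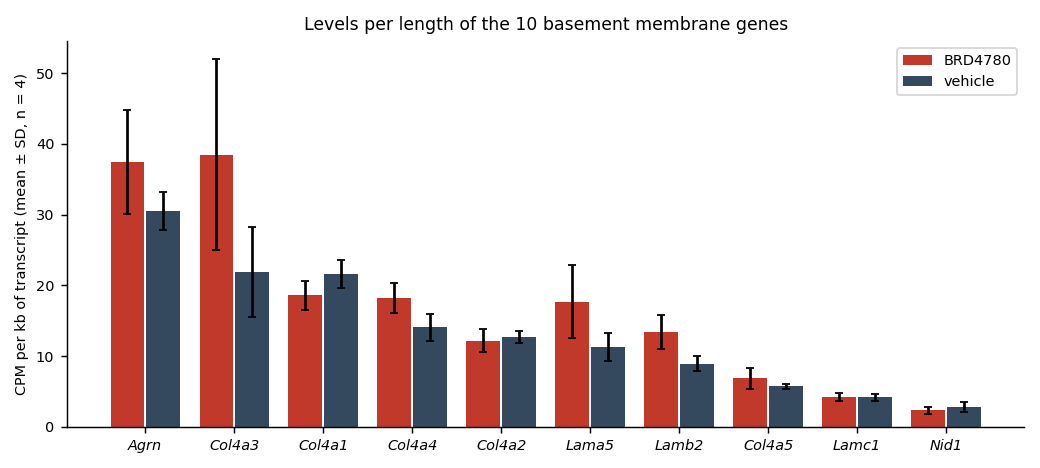
Mean level of each gene in CPM per kb of its longest coding transcript, BRD4780 bars left of vehicle bars, with error bars for SD (n = 4 each), ordered by the vehicle level. Col4a3 and Agrn reach 38.5 and 37.4 CPM per kb with BRD4780, and Nid1 is lowest at 2.3.

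Members also differed in how they varied over the 8 libraries. As a root mean square difference of mean-centred log2 CPM, Col4a5 and Agrn were 0.09 apart, Col4a1 and Col4a2 0.13, Col4a4 and Agrn 0.15, and Col4a3 and Lama5 0.18. The widest gap was 0.69, between Col4a3 and Nid1. Among 11060 other genes, the profiles nearest Col4a3 were those of Slc4a9 (0.12), Baz2b (0.14), Pfkfb4 (0.14), Gabbr1 (0.15) and Slc4a3 (0.15), where the median gene was 0.58 away. Nearest Col4a1 were Wwp1 (0.04), Far1 (0.05), Sirpa (0.05), Osbpl8 (0.06) and Zkscan1 (0.06), with a median of 0.24. These distances describe 8 libraries that share the treatment contrast and carry no test.

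Markers of podocytes and of endothelial cells differed between the groups beside these genes. Of 14 podocyte markers tested (of 15 listed), 4 rose and 0 fell by edgeR, with a median log2 fold change of 0.82, and DESeq2 called 9 higher and 0 lower. Lmx1b was at 0 in 5 libraries. Among them, Nphs1, the slit diaphragm protein nephrin, rose by 2.03 ± 0.29 (log2, SE, adjusted p = 0.0114 by edgeR) and Podxl by 1.33 ± 0.22 (adjusted p = 0.0175). Ptpro and Cdkn1c rose as well (1.24 ± 0.27, adjusted p = 0.0448, and 1.55 ± 0.30, adjusted p = 0.0305, by edgeR). The summed podocyte markers were 437, 479, 340 and 498 CPM with BRD4780, against 285, 242, 289 and 188 CPM with vehicle, so the groups did not overlap. Podxl and Cd2ap were the largest terms of this sum in each library, so it mostly follows these genes. Cd2ap had 94.5 to 138 CPM with BRD4780 and 105 to 132 CPM with vehicle (log2 fold change 0.13 ± 0.13 SE, adjusted p = 0.534 by edgeR). Of 12 endothelial markers 4 rose (Flt1, Egfl7, Eng and Robo4) and 0 fell by edgeR, DESeq2 called 11 higher and 0 lower, and the median was 0.67, with sums of 476 to 601 CPM with BRD4780, against 216 to 402 CPM with vehicle. Over all genes with all 8 libraries, edgeR called 2.30% higher and 0.623% lower, DESeq2 called 6.41% and 3.69%, and the median was 0.01. Without vehicle replicate 2, 0 markers of either list passed, and without BRD4780 replicate 3, 11 podocyte and 9 endothelial markers rose. Of all genes, 12.1% were higher without BRD4780 replicate 3. Exons of Nphs1, Cdkn1c and Eng overlap transcripts on the opposite strand, and those of Egfl7 on both strands. The part of these markers in the levels of Lamb2, Col4a3, Col4a4 and Lama5 was not tested.

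Library by library, Lamb2 and the collagen chains sat differently beside the podocyte sum. Vehicle replicate 4 had the lowest podocyte sum (188 CPM, of which Cd2ap was 105 CPM) and the lowest Lamb2 (42.3 CPM). The same library had the highest vehicle values of Col4a3 (263 CPM), Col4a4 (171 CPM) and Lama5 (154 CPM). BRD4780 replicate 3 had the lowest podocyte sum of the treated libraries (340 CPM) and their lowest Col4a3, Col4a5, Lama5, Lamb2, Lamc1 and Agrn. Its Col4a4 (166 CPM) was level with that of replicate 2. The same library had the highest treated Col4a1 (141 CPM), and its Col4a2 (81 CPM) and Nid1 (15.9 CPM) were below replicate 4 only.

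**Figure D5:**
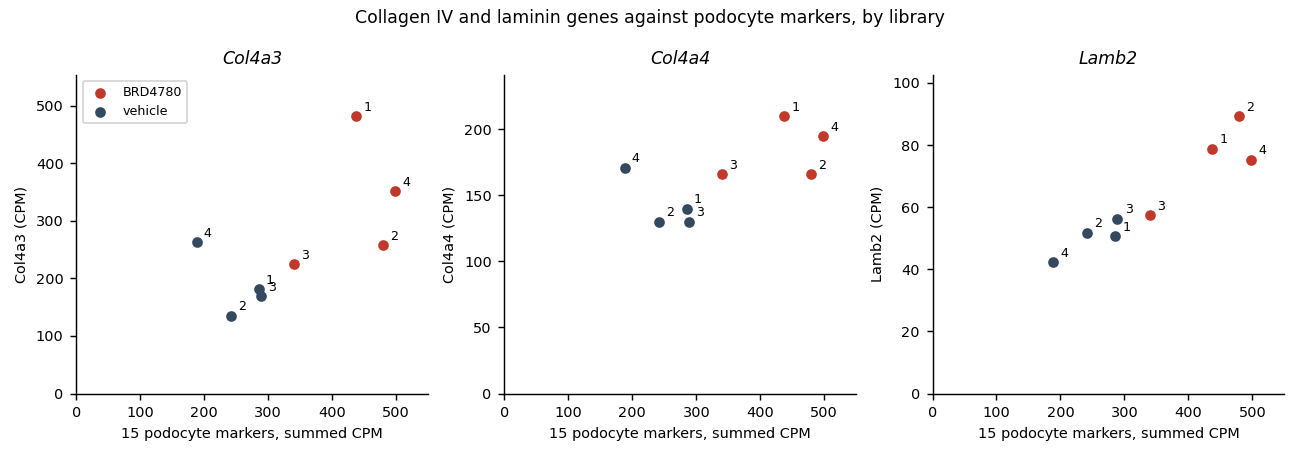
CPM of Col4a3, Col4a4 and Lamb2 against the summed CPM of 15 podocyte markers, 1 point per library numbered by replicate, BRD4780 in red and vehicle in blue. Podxl and Cd2ap are the largest terms of the sum. Vehicle replicate 4, at 188 CPM of markers, is the lowest vehicle library for Lamb2 and the highest for Col4a3 and Col4a4.

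Among markers of other cell types, the mesangial list included, edgeR called genes in the thick ascending limb list only. Thick ascending limb markers had 3 of 7 lower (Kcnj1, Cldn19 and Bsnd) and 0 higher, with a median log2 fold change of -0.52, and DESeq2 called 6 lower and 0 higher. In each of the remaining lists 0 markers passed in either direction with all 8 libraries: mesangial and pericyte (9 tested, median 0.06), fibroblast (7, -0.26), proximal tubule (9, -0.08), collecting duct (8, -0.24), adipocyte (5, -1.82) and macrophage (6, -0.18). At an unadjusted p under 0.05 these 6 lists, in that order, had 1, 2, 1, 0, 0 and 0 higher and 0, 2, 1, 4, 2 and 1 lower. DESeq2 called 1 fibroblast marker higher, and 3 collecting duct markers and 1 macrophage marker lower. Of all genes, 13.9% were higher and 10.7% lower at an unadjusted p under 0.05. Past the adjusted threshold, edgeR called 2.30% higher and 0.623% lower, and DESeq2 6.41% and 3.69%. Without BRD4780 replicate 3, edgeR called 4 proximal tubule, 2 collecting duct and 1 macrophage marker lower, and 1 mesangial and 1 fibroblast marker higher. Of all 13558 genes tested in that setting, 1537 were lower and 1647 (12.1%) higher, so single markers called there are near the share of all genes.

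Other components of basement membranes were counted in a list of 26 genes, of which 1 rose, Sparc, and 0 fell by edgeR. Sparc encodes a collagen-binding protein of the matrix and had 109, 116, 105 and 111 CPM with BRD4780, against 69.2, 62.7, 67.4 and 54.5 CPM with vehicle. The treated libraries were tightly grouped above all vehicle libraries (log2 fold change 0.80 ± 0.09 SE, adjusted p = 0.00249 by edgeR). The median of the list was -0.18, with 9 fold changes positive and 17 negative, beside 7 positive and 3 negative among the 10 members. Over all genes tested the median was 0.01, with 6952 positive and 6522 negative, and edgeR called 2.30% higher and 0.623% lower. At an unadjusted p under 0.05, 3 of the 26 were higher and 5 lower, against 13.9% and 10.7% of all genes. DESeq2 called 1 higher and 3 lower, against 6.41% and 3.69% of all genes.

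Of 16 genes for collagen IV assembly and secretion tested (of 20 listed, the rest not used here), 0 were called in either direction by edgeR. At an unadjusted p under 0.05, 3 were higher and 2 lower, against 13.9% and 10.7% of all genes. DESeq2 called 2 higher and 1 lower, against 6.41% and 3.69% of all genes, where edgeR called 2.30% and 0.623%. The same shares stand beside the receptor and turnover counts below. Serpinh1, the collagen chaperone HSP47 gene, had a log2 fold change of -0.53 ± 0.14 (SE, adjusted p = 0.0702 by edgeR). Loxl1, a lysyl oxidase family gene, had 0.57 ± 0.15 (SE, adjusted p = 0.0722 by edgeR). Of 17 basement membrane receptor genes 0 were called by edgeR, 0 were higher and 2 lower at an unadjusted p under 0.05, and DESeq2 called 0 higher and 1 lower. The 2 receptor genes with the smallest p were the syndecans Sdc4 (-0.28 ± 0.08, adjusted p = 0.0741) and Sdc1 (-0.32 ± 0.12, adjusted p = 0.149, SE, edgeR). Among 12 turnover genes tested (of 15 listed), 1 fell and 0 rose by edgeR, with 1 higher at an unadjusted p under 0.05 and 1 higher by DESeq2. The gene that fell was Plau, the urokinase plasminogen activator, at 730 ± 109 CPM with BRD4780 and 1070 ± 110 CPM with vehicle (SD, n = 4 each; log2 fold change -0.55 ± 0.12 SE, adjusted p = 0.0452 by edgeR). Leaving out 1 library gave Plau an adjusted p under 0.05 in 2 of 8 cases, without BRD4780 replicate 3 and without vehicle replicate 4. Ctsl, a lysosomal protease gene whose exons overlap annotated genes on both strands, had 0.40 ± 0.12 (log2, SE, adjusted p = 0.0825 by edgeR).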

How the data were processed

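Per the labels, RNA of kidney sections was sequenced as stranded, oligo-dT selected libraries from 4 mice per group. The deposited values are expected counts per gene, not normalized, and 15.1% to 28.9% of a library's values were not whole. The submitters' processing notes name Picard, STAR 2.5.2b and RSEM 1.3.0, which divides ambiguous reads between genes by likelihood. They name the builds mm10 and hg19 without roles; strand use in counting and its annotation are not stated in the labels.

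Groups came from the treatment label, and replicate numbers follow accession order and pair nothing. The table had 22121 lines; 343 symbols on several identical lines were collapsed to leave 21759 genes, and 1 column that matched no sample was not used. No 2 libraries agreed within sampling noise (lowest chi-square per degree of freedom 7.98). Expected counts were rounded, filtered with filterByExpr (minimum count 10) and scaled by TMM in edgeR 4.0.16 (R 4.3.3). The quasi-likelihood F-test with no covariate was adjusted by Benjamini-Hochberg over 13474 genes at 0.05. SE is the absolute log2 fold change over the square root of F. CPM use TMM-scaled totals. Lengths and coordinates are from GENCODE M21, in which 21790 of 22116 identifiers were found. Profile distances used log2 CPM (prior count 2) of genes with a mean of at least 1.

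Alternatives were DESeq2 1.42.0 (its test, and its size factors in edgeR), no filter on low counts, leaving out each library, and, added after seeing the data, the number code of the titles as a block. Named genes are the members, every called gene of each other list or its 2 smallest p (at most 6), and the 5 profiles nearest Col4a3 and Col4a1. Cd2ap is named for its size in the podocyte sum. The members and lists were chosen with earlier results of these data known.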

Additional observations from a re-analysis of the deposited data

Results flagged for a closer look

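The ratio of Lama5 to Lamc1, per kb within a library, was 6.05 in BRD4780 replicate 1, against 3.32 to 3.77 in the other treated libraries. Its gap to the nearest of them was 0.834 of the group's range, above Dixon's 95% critical value for 4 samples. This was the 1 such value among 38 groups tested, where chance gives about 1 in 20. The vehicle libraries had ratios of 2.54, 2.25, 2.58 and 3.68.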

How the results depend on the processing

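The number of members called higher, 1 in the reported fit, was 4 by DESeq2's test, and 0 to 6 when 1 library was left out. It was 6 without BRD4780 replicate 3 (Col4a3, Col4a4, Col4a5, Lama5, Lamb2 and Agrn) and 0 in each of the other 7 omissions, as the calls over all genes moved to 1647 higher and 1537 lower without BRD4780 replicate 3, and to 26 higher and 5 lower without vehicle replicate 2. Members called lower were 0 to 1 in these omissions, the 1 being Col4a1 without BRD4780 replicate 3 (adjusted p = 0.0398 by edgeR). Of the other 26 components, 0 called lower became 3 by DESeq2's test, 1 with no filter on low counts, and 0 to 4 with 1 library left out (4 without BRD4780 replicate 3). Collagen IV pairs past the adjusted threshold were 0 to 5 in the omissions, 5 without BRD4780 replicate 3. Each omission also left fewer samples, and the cause of these changes was not tested.

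Log2 fold changes reversed in 5 values over 4 omissions. Over all omissions Col4a2 ran from -0.13 to 0.01 (positive without BRD4780 replicate 2). Lamc1 ran from -0.06 to 0.09 and was negative without BRD4780 replicate 4 (-0.06), vehicle replicate 2 (-0.01) or vehicle replicate 4 (-0.04). Lyz2 ran from -0.81 to 0.14 (positive without vehicle replicate 4). Among values of single genes, 480 kept direction and side of the threshold, 37 moved past it and 90 fell short of it. The Col4a3 log2 fold change was 0.57 without BRD4780 replicate 1 and 1.02 without vehicle replicate 4, with adjusted p-values of 0.243 and 0.0622 by edgeR. Sparc kept its call in each alternative. With 1 library left out, podocyte markers called higher were 0 to 11, endothelial markers 0 to 9 and thick ascending limb markers called lower 0 to 6, the highest counts coming without BRD4780 replicate 3. Of the number codes in the sample titles, 2 occur in both groups, and the labels do not state their meaning. A fit with this code as a replicate block, chosen after seeing the data, left 1 residual degree of freedom and called 0 members in either direction (4 at an unadjusted p under 0.05), with 57 genes higher and 90 lower in all. Lamb2 had a log2 fold change of 0.84 and an adjusted p of 0.0771 by edgeR in it. Libraries with the same code did not deviate together from their group means (correlations over genes of -0.01 and -0.30). With 4 mice a group, BRD4780 replicate 4 at 5.74 M counts had the least depth.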

Other observations

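Col15a1, the collagen XV chain of basement membrane zones, was singled out after its values were seen. It had 3.35, 1.68, 5.9 and 4.02 CPM with BRD4780, against 9.48, 6.63, 10.4 and 15.5 CPM with vehicle. Each treated library lay below each vehicle library, with a log2 fold change of -1.50 ± 0.36 (SE) and an adjusted p of 0.055 by edgeR and 0.00141 by DESeq2.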
